A study of Mus musculus with 4 samples.

Results

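Otx2, Hesx1, Six3, Rax, Lhx2, Pax6 and Sox1 encode transcription factors that mark the forebrain and anterior neural plate of the early mouse embryo. These 7 genes were chosen by name, with earlier results of these data known. All were found among the 24421 genes of a count table from whole embryos. All 7 passed a minimum of 10 counts in at least 1 library, as did 14393 genes of the table. The libraries were made from ICR embryos. E7.5 WT was 1 wild-type library at embryonic day 7.5, and E8.5 WT was 1 wild-type library at embryonic day 8.5. KO1 and KO2 were 2 libraries of Ddx6 -/- embryos at embryonic day 8.5, replicates 1 and 2 of the labels. Ddx6 encodes an RNA helicase of mRNA decay and translational repression. The null allele came from a floxed line whose exon 5 had been removed by a ubiquitous CAG-Cre deleter, and KO embryos came from crosses of heterozygous mice. Per the study's text, each KO library was a pool of embryos. The KO1 pool mixed embryos with and without a head fold, whereas no embryo of the KO2 pool had formed one.

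In the mouse, the anterior neural plate forms from the anterior epiblast under signals from the anterior visceral endoderm and the prechordal plate, and the forebrain and eyes arise from it. Otx2 is active across the whole epiblast before it is restricted to the future forebrain and midbrain. Hesx1 and Six3 then mark the most anterior part of the plate, and Rax, Lhx2 and Pax6 are needed for the eye field that forms within it. Sox1 is an early marker of the neural plate along its whole length. Several of these genes are not used by the forebrain alone: Otx2 and Hesx1 are also transcribed in anterior visceral endoderm, and Pax6 and Sox1 also in spinal cord.

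Upstream windows of 250 bases were available from RefSeq for 6 of the 7 genes. Otx2, Hesx1 and Pax6 are shown, because in KO2 the first was above its E8.5 WT level and the others were below it. The windows are on GRCm38.p6. They lie at chr14:48667645-48667894 on the minus strand for Otx2, chr14:27000112-27000361 on the plus strand for Hesx1 and chr2:105668646-105668895 on the plus strand for Pax6. None of them holds a base of an annotated exon, and those of Otx2 and Hesx1 lie inside the annotated span of the gene. Capitals mark a match to a homeodomain motif.
Otx2: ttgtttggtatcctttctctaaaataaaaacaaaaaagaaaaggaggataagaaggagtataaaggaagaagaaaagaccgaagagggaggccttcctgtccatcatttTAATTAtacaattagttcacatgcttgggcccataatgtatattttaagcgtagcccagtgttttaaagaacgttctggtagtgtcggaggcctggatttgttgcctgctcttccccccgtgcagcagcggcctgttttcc
Hesx1: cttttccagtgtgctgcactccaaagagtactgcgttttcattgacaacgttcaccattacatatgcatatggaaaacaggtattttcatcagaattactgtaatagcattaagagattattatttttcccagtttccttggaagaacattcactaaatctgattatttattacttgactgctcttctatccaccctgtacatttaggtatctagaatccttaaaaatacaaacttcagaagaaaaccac
Pax6: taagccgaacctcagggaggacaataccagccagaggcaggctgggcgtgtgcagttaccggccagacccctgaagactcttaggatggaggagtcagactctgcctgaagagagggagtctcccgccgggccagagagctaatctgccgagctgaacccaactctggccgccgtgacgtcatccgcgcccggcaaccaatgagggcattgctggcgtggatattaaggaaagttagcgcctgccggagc

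The motifs searched on both strands were GGATTA, the bicoid-type site that OTX2 prefers, TAATTA, a site of many other homeodomain proteins such as RAX and LHX2, and ATTGTT, the core bound by SOX proteins. The Otx2 window held 1 TAATTA, and the Hesx1 and Pax6 windows held no match to any of the 3 motifs. Among 32851 windows of the same length, 6.25% held GGATTA, 4.84% held TAATTA and 9.42% held ATTGTT. A second Otx2 window, at chr14:48665110-48665359, lies within an annotated exon and is not printed. It held 3 matches to TAATTA and 1 to GGATTA. The other two Otx2 windows held no match to any of the 3 motifs. At least 3 TAATTA matches were present in 0.0487% of all windows, and both homeodomain motifs in 0.39%. The G+C content was 42.0% in the printed Otx2 window, 34.0% in that of Hesx1 and 60.8% in that of Pax6, against a median of 52.4% over all windows. The counts per gene do not show which start site was used.

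Total counts were 8198402 in KO1 and between 12008252 and 12562640 in the other libraries, and 16511 to 17112 genes had a count. Ddx6 itself had 2943 and 5715 reads in the E7.5 and E8.5 WT libraries and 706 and 929 in KO1 and KO2, a mean log2 change of -2.54 ± 0.10 (SD, n = 2) against E8.5 WT. Transcripts of tissue outside the embryo differed between the libraries. Of 7 trophoblast and decidua genes, Prl3b1 and Tpbpa were at 0 in every library. The sum over the list was 2501 and 7053 reads for E7.5 WT and KO2, but 40 and 85 reads for E8.5 WT and KO1. The high sums of E7.5 WT and KO2 came in part from different genes. Prl3d1, a hormone of trophoblast giant cells, took 4156 reads of KO2 but 27 of E7.5 WT. Elf5 and Ascl2 went the other way. Elf5 took 795 reads of E7.5 WT against 10 of KO2, and Ascl2 took 358 against 54. Neither gene exceeded 11 reads in E8.5 WT or KO1. Prl8a2, a gene of the decidua, had 1318 reads in E7.5 WT, 26 in the E8.5 WT library, 64 in KO1 and 1433 in KO2. KO2 thus stood apart from KO1, and all values are given for each KO library on its own.

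Levels are given as reads and as CPM, the reads scaled to a common library total by TMM. A log2 change is the difference of log2 CPM after adding a prior count of 2, with the 95% Clopper-Pearson interval of the reads in brackets. Intervals cover counting error only. A log2 change above 1 or below -1 was taken as the threshold.

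Otx2 (chromosome 14, 48657677 to 48673819, minus strand, GRCm38), a homeobox gene required for formation of the head, had the most reads of the 7 genes in every library. There were 828 reads in E7.5 WT (69.6 CPM), 703 in E8.5 WT (57.2 CPM), 510 in KO1 (60.7 CPM) and 2059 in KO2 (169 CPM). The WT libraries and KO1 lay close together and KO2 stood above all of them. Set against E8.5 WT, Otx2 had a log2 change of 0.09 [-0.08 to 0.25] for KO1 and of 1.56 [1.44 to 1.69] for KO2, the latter a 2.95-fold higher level. Set against E7.5 WT, the values were -0.20 for KO1 and 1.28 for KO2. KO2 was therefore above both WT stages, and its level was 2.78-fold that of KO1. Epiblast and anterior endoderm, in which Otx2 is also active, differed between the same libraries. The summed level of 7 epiblast genes was 2112 and 547 CPM at E7.5 and E8.5 in the wild type, and 731 and 3136 CPM in KO1 and KO2. Most of each sum came from Dnmt3b, with 1531, 450, 572 and 2334 CPM in the same order. The summed level of 8 anterior endoderm and prechordal genes was 184, 121, 161 and 414 CPM in that order. Both sums were highest in KO2, and their part in the Otx2 reads of KO2 was not tested. In RNA from whole embryos, fewer cells of a type and less RNA per cell cannot be told apart.

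**Figure D1:**
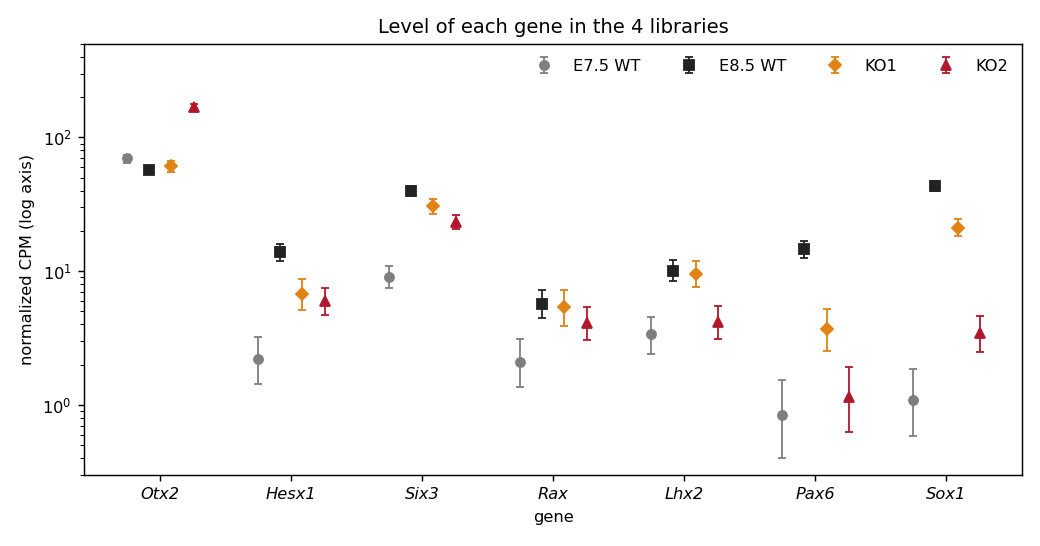
Level of each of the 7 genes in each library, as normalized CPM on a log axis. Symbols are single libraries and bars are 95% exact Poisson intervals of the reads, which cover counting error only. For Otx2 the KO2 library is the highest at 169 CPM, and for the other genes E8.5 WT is the highest library and E7.5 WT the lowest.

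Hesx1 and Six3, repressors that protect the anterior plate from posteriorizing signals, kept levels between those of the WT stages in both KO libraries. Hesx1 (chromosome 14, 26994416 to 27002329, plus strand) had 26 reads in E7.5 WT (2.19 CPM), 170 in E8.5 WT (13.8 CPM), 57 in KO1 (6.79 CPM) and 73 in KO2 (5.99 CPM). The KO libraries were alike for Hesx1, with a log2 change of KO2 against KO1 of -0.18 [-0.70 to 0.35]. Relative to E8.5 WT, the Hesx1 log2 change was -1.01 [-1.49 to -0.59] for KO1 and -1.18 [-1.62 to -0.80] for KO2, with a mean of -1.10 ± 0.12 (SD, n = 2). Six3 (chromosome 17, 85613608 to 85629302, plus strand) had 108 reads in E7.5 WT (9.08 CPM), 489 in E8.5 WT (39.8 CPM), 257 in KO1 (30.6 CPM) and 285 in KO2 (23.4 CPM). Six3 was thus lower than in E8.5 WT by less than the threshold. The Six3 values were -0.38 [-0.60 to -0.16] for KO1 and -0.76 [-0.98 to -0.55] for KO2, with a mean of -0.57 ± 0.27. Against E7.5 WT, Six3 was 3.32-fold higher in KO1 and 2.55-fold higher in KO2, and Hesx1 was 2.95-fold and 2.61-fold higher.

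The eye field genes differed from each other in the KO libraries. Pax6 was below E8.5 WT in both, Lhx2 in KO2, and for Rax the intervals included no difference from E8.5 WT. Rax (chromosome 18), whose product specifies the optic primordium, had 25 reads in E7.5 WT (2.102 CPM), 70 in E8.5 WT (5.70 CPM), 45 in KO1 (5.36 CPM) and 50 in KO2 (4.10 CPM). The intervals of the Rax log2 change against E8.5 WT included 0 in KO1 (-0.09 [-0.66 to 0.47]) and in KO2 (-0.46 [-1.03 to 0.07]), so a difference of Rax was not detectable at this depth. Lhx2 (chromosome 2, 38339281 to 38369733, plus strand), a LIM homeobox gene required for the optic vesicle to become the eye cup, had 40 reads in E7.5 WT (3.36 CPM), 124 in E8.5 WT (10.1 CPM), 80 in KO1 (9.53 CPM) and 51 in KO2 (4.19 CPM). Lhx2 stood with E8.5 WT in KO1 (-0.08 [-0.51 to 0.33]) and with E7.5 WT in KO2 (0.30 against E7.5 WT [-0.31 to 0.95]). Its log2 change of KO2 against KO1 was -1.15 [-1.72 to -0.66].

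Pax6 (chromosome 2, 105668900 to 105697364, plus strand), a paired-box gene required for eye development, had 10 reads in E7.5 WT (0.841 CPM), 180 in E8.5 WT (14.6 CPM), 31 in KO1 (3.69 CPM) and 14 in KO2 (1.15 CPM). E8.5 WT was the one library with a high Pax6 level, and KO2 lay at the level of E7.5 WT (0.38 [-0.82 to 1.78]). Against E8.5 WT, Pax6 was 3.83-fold lower in KO1 (-1.94 [-2.59 to -1.43]) and 11.2-fold lower in KO2 (-3.48 [-4.57 to -2.89]). Sox1 (chromosome 8, 12395295 to 12400126, plus strand), the general neural plate marker among the 7 genes, had 13 reads in E7.5 WT (1.09 CPM), 533 in E8.5 WT (43.4 CPM), 178 in KO1 (21.2 CPM) and 42 in KO2 (3.45 CPM). The Sox1 reads were spread more widely over the libraries than those of any other of the 7 genes. Sox1 was 2.04-fold lower than E8.5 WT in KO1 (-1.03 [-1.29 to -0.79]) and 12.01-fold lower in KO2 (-3.59 [-4.14 to -3.20]). The mean of the KO libraries was -2.31 ± 1.81 (SD, n = 2), and the spread between them, -2.56 for KO2 against KO1, was larger than that mean. The study plotted Sox1 and Pax6 from these same libraries, so their direction is not independent of that choice. From stained sections, the study also reported weak SOX1 protein in E8.5 KO embryos and premature SOX1 in the epiblast of younger ones.

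The WT stages were compared to place the KO values. From E7.5 to E8.5, 6 of the 7 genes were higher past the threshold, where 12.2% of the 14393 genes were, and none was lower past it, where 7.82% were. The log2 change of E8.5 WT against E7.5 WT was largest for Sox1 (5.10), followed by Pax6 (3.86), Hesx1 (2.57), Six3 (2.11), Lhx2 (1.54) and Rax (1.37). Otx2 was the exception, at -0.28 [-0.43 to -0.14]. There was 1 library per WT stage, so that these differences had no replicate check of their own.

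Against E8.5 WT, 3 of the 7 genes, Hesx1, Pax6 and Sox1, were lower past the threshold in both KO libraries, where 1.79% of all genes were. None was higher past it in both, where 3.44% were. KO1 and KO2 had median log2 changes of -0.38 and -1.18 over the 7 genes, against -0.01 and -0.00 over all genes. The calls of Hesx1 and Sox1 rested on KO1 values close to the threshold. With plain CPM in place of TMM these values were -0.94 and -0.96, and Pax6 alone stayed past the threshold in both KO libraries.

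**Figure D2:**
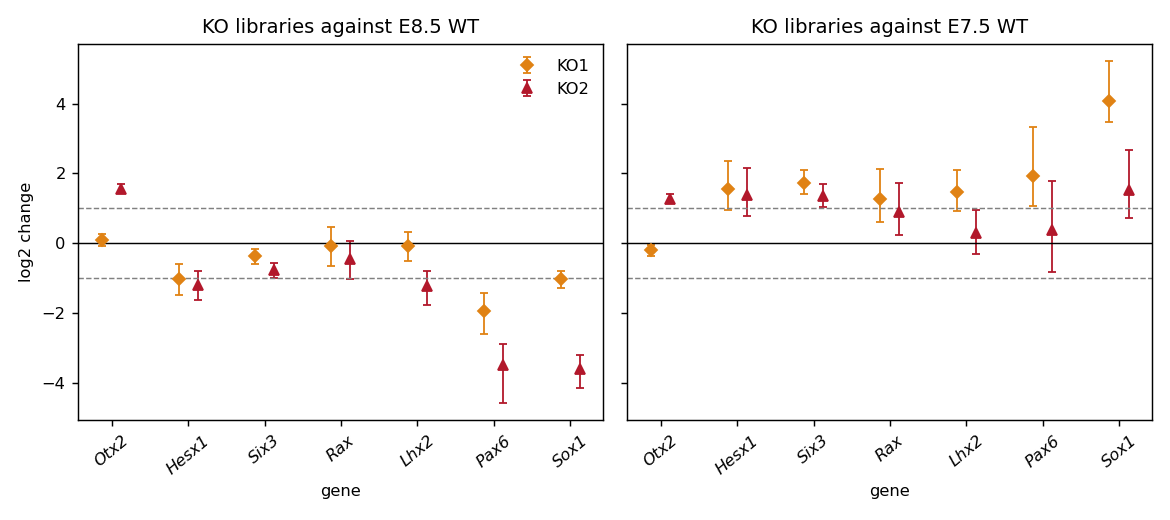
Log2 change of each KO library against E8.5 WT and against E7.5 WT for the 7 genes, with 95% Clopper-Pearson intervals that cover counting error only. Dashed lines mark log2 changes of 1 and -1. Hesx1, Pax6 and Sox1 lie below -1 in both KO libraries against E8.5 WT, and Six3, Hesx1 and Sox1 lie above 1 in both against E7.5 WT.

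The edgeR quasi-likelihood test, which could take the spread from the 2 KO libraries and no others, called 0% of the genes at an adjusted p under 0.05 in each comparison between groups. No label says whether the KO replicates came from separate litters, so p-values measure the spread between these libraries. For KO against E8.5 WT, 1052 genes (7.31%) had an unadjusted p under 0.05, and DESeq2 called 31, or 0.261% of those with an adjusted p. Of the 7 genes, Hesx1 and Pax6 were among the 1052, with an adjusted p of 0.666 for both by edgeR's quasi-likelihood test with Benjamini-Hochberg adjustment. DESeq2 called none of the 7 genes. Over its alternatives this count of called members stayed at 0.

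Against E7.5 WT, Six3, Hesx1 and Sox1 were higher past the threshold in both KO libraries, 3 of 7, where 6.91% of all genes were. None was lower past it in both, where 2.7% were. The medians over the 7 genes were 1.56 for KO1 and 1.28 for KO2, against 0.02 and 0.07 over all genes. Sox1 was 16.8-fold higher than E7.5 WT in KO1 (4.07 [3.47 to 5.21]) and 2.85-fold higher in KO2 (1.51 [0.73 to 2.68]). No gene passed the edgeR test, and 3511 (24.4%) had an unadjusted p under 0.05. Six3 and Hesx1, 2 of 7, were among these, with adjusted p-values by edgeR of 0.131 and 0.155. DESeq2 called 721 genes, 6.21% of those with an adjusted p, among them Six3 (adjusted p = 0.0489) and Sox1 (adjusted p = 0.0117). Between the WT stages, 3099 genes (21.5%) had an unadjusted p under 0.05 with edgeR, 4 of the 7 among them, and DESeq2 called 438 (3.78%), 2 of the 7 among them. Each WT stage is 1 library there, which both tools assume to vary as the KO pools do, so these counts compare libraries and not stages. These comparisons share libraries with each other and are not independent.

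The KO libraries were placed between the WT stages by setting E7.5 WT to 0% and E8.5 WT to 100% on the log2 scale. In KO1 the position was 94.7% for Lhx2, 93.8% for Rax, 82.1% for Six3, 79.9% for Sox1, 60.7% for Hesx1 and 49.8% for Pax6. In KO2 it was 66.6% for Rax, 63.9% for Six3, 53.9% for Hesx1, 29.6% for Sox1, 19.6% for Lhx2 and 9.87% for Pax6. Each of the 6 genes had a position nearer to E7.5 WT in KO2 than in KO1, and the gap was small for Hesx1 and large for Lhx2 and Sox1. The positions carry no intervals. For Hesx1 and Rax the interval of KO2 against KO1 included 0, for Rax at [-0.996 to 0.229]. The order of the KO libraries is thus not shown for Hesx1 and Rax. Otx2 has no such position, because its WT stages differed by too little.

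KO2 differed from KO1 past the threshold in 4 of the 7 genes. Otx2 was higher in KO2, where 5.99% of all genes were, and Lhx2, Pax6 and Sox1 were lower in KO2, where 4.89% were. Hesx1, Rax and Six3 had log2 changes of -0.18, -0.37 and -0.39, the last with an interval that did not include 0 [-0.64 to -0.14]. KO1 and KO2 differ in the embryos pooled as well as in their trophoblast reads, and these cannot be told apart here.

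The make-up of the 7 genes' reads within a library does not depend on the scaling of libraries. Otx2 took 78.9% of the 1050 reads of E7.5 WT, 31.0% of the 2269 reads of E8.5 WT, 44.0% of the 1158 reads of KO1 and 80.0% of the 2574 reads of KO2. The share in KO2 (interval 78.4% to 81.5%) met that in E7.5 WT (76.3% to 81.3%), and the share in KO1 (41.2% to 47.0%) lay between the WT stages. Sox1 took 1.24%, 23.5%, 15.4% and 1.63% in the same order, and Pax6 took 0.952%, 7.93%, 2.68% and 0.544%. Six3 took 10.3% in E7.5 WT and 11.1% in KO2, and 21.6% in E8.5 WT and 22.2% in KO1. A share depends on the Otx2 reads of its library: Sox1 and Six3 had like shares in KO2 and E7.5 WT, although their own levels were 2.85-fold and 2.55-fold higher in KO2.

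**Figure D3:**
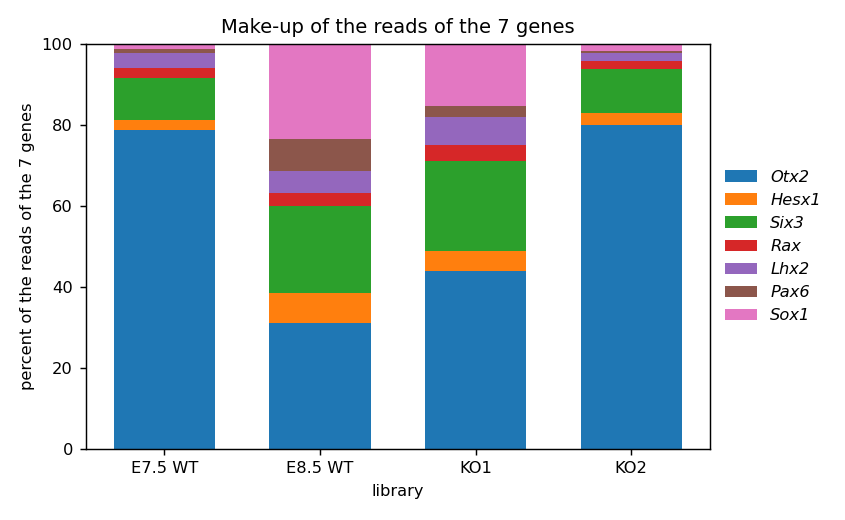
Make-up of the reads of the 7 genes in each library, as percent of their summed reads. Each stacked bar is 1 library. The Otx2 part fills 78.9% of E7.5 WT and 80.0% of KO2 but 31.0% of E8.5 WT and 44.0% of KO1, and the Sox1 part is widest in E8.5 WT at 23.5%.

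Ratios to Sox1 set the anterior genes against the general neural plate marker. Six3 had 8.31 reads per read of Sox1 in E7.5 WT and 0.917 (interval 0.810 to 1.04) in E8.5 WT, next to 1.44 in KO1 (1.19 to 1.76) and 6.79 in KO2 (4.90 to 9.62). Hesx1 had 2 and 1.74 reads per read of Sox1 in E7.5 WT and KO2, and 0.319 and 0.320 in E8.5 WT and KO1, with intervals of 1.17 to 2.60 in KO2 and 0.267 to 0.380 in E8.5 WT. Rax had 0.131 for E8.5 WT, against 0.253 and 1.19 for KO1 and KO2, and Lhx2 had 0.233, 0.449 and 1.21. Pax6 had 0.769 for E7.5 WT (0.302 to 1.899), 0.338 for E8.5 WT (0.284 to 0.401), 0.174 in KO1 (0.115 to 0.256) and 0.333 in KO2 (0.168 to 0.623). Relative to Sox1, Pax6 was therefore lower in KO1 than in E8.5 WT, whereas Six3, Rax and Lhx2 were higher in both KO libraries and Hesx1 was so in KO2. The KO2 ratios rest on 42 reads of Sox1, against 533 in E8.5 WT. Six3, Hesx1 and Lhx2 were themselves below E8.5 WT in KO2, with log2 changes of -0.76, -1.18 and -1.23. The higher ratios in KO2 are thus not higher levels of these genes.

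Levels of different genes were compared per kilobase of exon. On this scale Otx2 was highest in every library, with 23.2 and 19.1 CPM per kilobase at E7.5 and E8.5 in the wild type, and 20.3 and 56.4 in KO1 and KO2. In E8.5 WT Hesx1 was at 11.1, Sox1 at 8.98, Six3 at 7.31, Lhx2 at 2.998, Rax at 2.21 and Pax6 at 2.12 CPM per kilobase. The intervals of Hesx1 and Sox1 met there, as did those of Lhx2, Rax and Pax6. In KO2 Hesx1 was at 4.80, Six3 at 4.29, Rax at 1.59, Lhx2 at 1.24, Sox1 at 0.713 and Pax6 at 0.167, and the intervals met between Hesx1 and Six3, between Rax and Lhx2 and between Lhx2 and Sox1. Hesx1 and Six3 also met in E7.5 WT and in KO1. Pax6 had the lowest value in every library, with an interval that met that of Sox1 in E7.5 WT and that of Rax in E8.5 WT. Neighbours whose intervals meet are not ordered by these counts. The exon lengths joined all annotated exons of a gene, 6898 bases for Pax6, and came from another annotation than the counts. The intervals do not cover an error of length, so the order of genes whose intervals do not meet rests on those lengths.

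Antisense genes overlap Otx2, Six3, Rax, Lhx2 and Pax6 in the annotation, and the counting was strand-specific. Those of Rax and Lhx2 were not analysed here. Six3os1, a long noncoding RNA that starts within the annotated span of Six3, had 22 and 72 reads at E7.5 and E8.5 in the wild type, and 39 and 56 in KO1 and KO2. Its log2 changes from E8.5 WT were -0.32 for KO1 and -0.34 for KO2, both with intervals that included 0. Against E7.5 WT it was 1.25 and 1.23. Otx2os1 had at most 4 reads in a library and Pax6os1 had none. Sox1ot, which spans Sox1 on the same strand, was not analysed here, and its reads could not be told apart from those of Sox1.

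A further list of 11 forebrain genes was compiled beside the 7. It had 7 genes past the count minimum, and all 7 of these were below E8.5 WT in both KO libraries. Their median log2 changes were -1.11 for KO1 and -1.64 for KO2, or -1.14 and -1.68 with counts raised to a floor of 3. Foxd1 and Fezf1 were lower past the threshold in both. Foxd1, which acts in the retina and the diencephalon, had 0 and 130 reads at E7.5 and E8.5 in the wild type, and 15 and 4 in KO1 and KO2. Fezf1, a zinc finger gene of the forebrain, had 0, 167, 24 and 1 reads in the same order. Both genes were at 0 in E7.5 WT, and KO1 held more of their reads than KO2. Sp8 had 319, 498, 203 and 186 reads. Otx1, a paralog of Otx2, had 103, 97, 30 and 74, and the interval of Otx1 in KO2 against E8.5 WT included 0 (-0.37 [-0.83 to 0.07]). Of the 4 genes under the minimum, Six6, Vax1, Vax2 and Nkx2-1, none had more than 9 reads in a library, and at such depth no difference could be shown.

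Genes of the neural plate as a whole lay on both sides of E8.5 WT. Of 12 pan-neural genes 11 passed the count minimum, with medians of -0.47 for KO1 and -0.55 for KO2 relative to E8.5 WT, and none of them was past the threshold in both. In KO2 they ranged from -2.19 (Sox21) to 1.73 (Zic5). Sox2, a neural plate and epiblast factor, had 607 and 1322 reads at E7.5 and E8.5 in the wild type, and 473 and 1174 in KO1 and KO2. Zic2 had 1338, 778, 460 and 2130, and was highest in KO2 as Otx2 was. The summed pan-neural level was 551, 807, 631 and 794 CPM in the same order. Between the WT stages 8 of these genes rose, but Zic2, Pou3f1 and Zic5 fell, with log2 changes of -0.83, -1.41 and -0.37. Their KO2 levels exceeded those of E8.5 WT by 1.46, 0.93 and 1.73. The epiblast genes moved in these same directions, so the pan-neural sum is not a measure of neural plate tissue alone. Per 1000 pan-neural reads, Sox1 had 1.99 and 53.8 at E7.5 and E8.5 in the wild type, and 33.6 and 4.34 in KO1 and KO2. Six3 had 16.5, 49.3, 48.6 and 29.5 on that scale, so its KO1 value was next to that of E8.5 WT. Otx2 had 126, 70.9, 96.4 and 213.

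The regions behind the forebrain were compared in the same way. Of 14 midbrain, hindbrain and spinal cord genes 13 passed the count minimum, with medians of -0.80 for KO1 and -2.58 for KO2 (-0.83 and -2.69 at the floor). En1, Pax2, Pax8, Egr2 and Pax7 were lower past the threshold in both KO libraries, 5 of 13, where 1.79% of all genes were. Pax8 and Egr2 rest on few reads, with 21 and 35 in E8.5 WT, 0 and 5 in KO1 and 8 and 4 in KO2. Pax2, a gene of the midbrain-hindbrain boundary, had 17 reads in E7.5 WT and also in KO2, 77 in KO1 and 352 in E8.5 WT. Gbx2, which meets Otx2 at that boundary, had 230, 515, 273 and 47, so that KO2 held the fewest Gbx2 reads and the most Otx2 reads of the 4 libraries. The 8 anterior endoderm and prechordal genes had medians of 0.22 and 1.21, for KO1 and KO2. Among them Cer1, a secreted inhibitor of Nodal and BMP, was higher past the threshold in both KO libraries, where 3.44% of all genes were. Cer1 had 835 and 135 reads at E7.5 and E8.5 in the wild type, and 202 and 2021 in KO1 and KO2. Other members went the other way, with Lefty1 at -1.66 and Gsc at -0.77 in KO1 and Sfrp5 at -1.18 in KO2. The Lefty1 and Gsc values rest on 2 and 7 reads in KO1 against 14 and 19 in E8.5 WT. The interval of Gsc in KO1 included 0 [-2.38 to 0.42]. In KO2 Lefty1 was at 0.81 [-0.08 to 1.96] and Gsc at 2.24 [1.64 to 3.16]. The 7 epiblast genes had medians of 0.35 and 3.26. Nanog and Fgf5 were higher past the threshold in both, where 3.44% of all genes were. In KO1, 3 of the 7 were below E8.5 WT, among them Tdgf1 at -1.60.

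**Figure D4:**
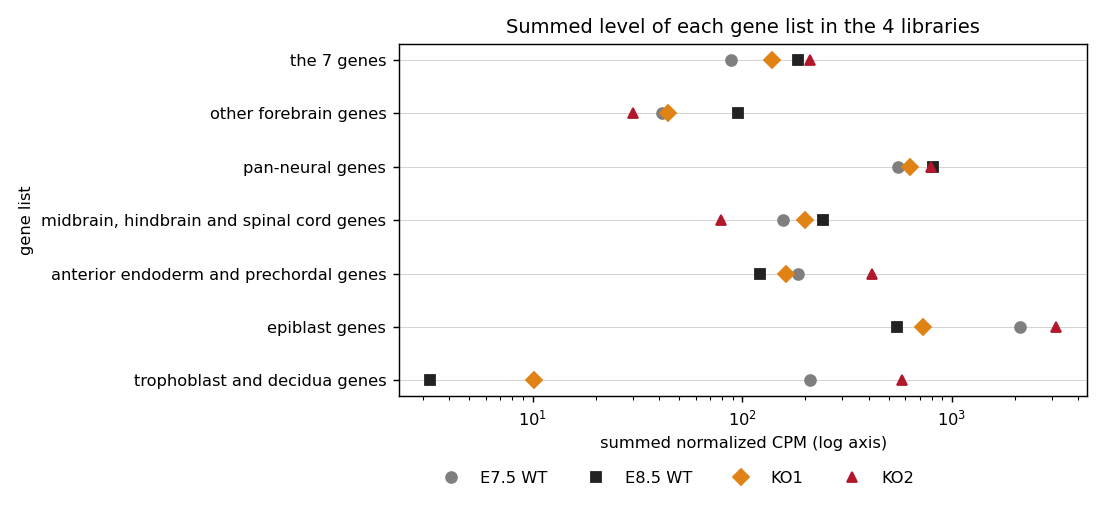
Summed normalized CPM of the 7 genes and of each further gene list in the 4 libraries, on a log axis. Each symbol is 1 library. The 11 other forebrain genes are lowest in KO2 at 30.03 CPM and highest in E8.5 WT at 95.9 CPM, whereas the epiblast genes and the trophoblast and decidua genes are highest in KO2.

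The edgeR test called none of the genes of these lists in any comparison. Over KO against E8.5 WT, unadjusted p-values under 0.05 were found for 3 of 7 other forebrain genes, 1 of 11 pan-neural genes, 3 of 13 midbrain, hindbrain and spinal cord genes, 1 of 8 anterior endoderm and prechordal genes and 1 of 7 epiblast genes, and for none of 5 trophoblast and decidua genes or for Six3os1. The share over all genes was 7.31%, so a single gene of a list is no result about it. DESeq2 called 1 of them, Nanog (adjusted p = 0.0154).

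The genes most like each of the 7 were found by the distance of their log2 CPM over the 4 libraries, each gene centred on its mean, among 11221 or 11222 genes whose mean count reached 50. Otx2 was nearest to Zic5, Rgs16 and Cadps2. Zic5, a zinc finger gene of the neural plate, had 151 and 120 reads at E7.5 and E8.5 in the wild type, and 94 and 399 in KO1 and KO2. Six3 was nearest to Fzd3, a Wnt receptor gene, with 335, 1562, 816 and 876 reads, and then to Lcorl and Cxxc4. Hesx1 was nearest to En1, a midbrain-hindbrain gene, with 25, 190, 59 and 71 reads, and then to Hdx and Thbs4. Rax was nearest to Chsy1, Armcx3 and Rbl1, and its pattern was common, with 836 genes within a distance of 0.5. Lhx2 was nearest to Reep1, Frem2 and Fndc3c1, with 132 genes within that distance. For Sox1 there was 1 gene within it, Thsd4 (13, 468, 183 and 60 reads), and for Pax6 there was none. The nearest to Pax6 was Nkx2-5, a cardiac gene, with 6, 188, 33 and 10 reads, followed by Ildr2 and Pax2. With 4 libraries these distances are a description.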

How the data were processed

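Polyadenylated RNA of whole embryos was sequenced in 4 libraries with a stranded kit. The authors deposited raw counts per gene. Per their methods, reads were trimmed with Cutadapt 2.8, checked with FastQC 0.11.7, aligned to mm10 with HISAT2 2.1.0, sorted with SAMtools 1.9 and counted over exons by strand with featureCounts 2.0.0. Total counts were between 8198402 and 12562640. Groups were taken from the sample titles.

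Counts were scaled by TMM over all genes in edgeR 4.0.16 (R 4.3.3), and genes that reached 10 counts in 1 library or more were kept. Log2 changes used a prior count of 2, and their threshold of 1 follows the study's methods. Two-sided quasi-likelihood F-tests of 3 groups (1 residual degree of freedom) were adjusted by Benjamini-Hochberg over all genes kept, with DESeq2 1.42.0 as the alternative test. The pipeline was tested on simulated data. The 7 genes and all lists were chosen with earlier results of these data known. Genes named are the 7, Ddx6, those of the lists, and the 3 nearest in pattern to each of the 7. Some genes of the lists are not reported here and were left out of their list's values. Exon lengths came from GENCODE (GRCm38, the assembly of mm10), and upstream windows from RefSeq (GRCm38.p6). Figures were drawn with matplotlib 3.10.9.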

Additional observations from a re-analysis of the deposited data

How the results depend on the processing

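Directions of all log2 changes of the 7 genes were kept under DESeq2 size factors, plain CPM and a prior count of 0.5, which moved them by at most 0.036, 0.066 and 0.19. Plain CPM shifted the median of all genes by up to 0.11 (KO2 from E7.5 WT). Of the counts of members under the alternatives, 25 stayed within 1.5 times the value given and 10 did not. The count called by the test was 0 in every comparison with edgeR. With DESeq2 it was 2 (Six3 and Sox1) for KO against E7.5 WT and 2 between the WT stages, and with no filter on counts it was 1 (Six3) in each of these. For the count past the threshold in both KO libraries against E8.5 WT, plain CPM left 1 of 3 (Pax6), because the KO1 values of Hesx1 and Sox1 lie near the threshold. A threshold of 2 left 0 in both KO libraries for either WT stage and 1 (Sox1) for KO2 against KO1. Leaving out 1 KO library in turn gave 3 to 5 genes against E8.5 WT, where the 5 are those of KO2 alone (Hesx1, Lhx2, Pax6 and Sox1 lower, Otx2 higher). Against E7.5 WT it gave 4 to 6, where the 6 are those of KO1 alone (all but Otx2). No paired analysis was possible because the WT groups have 1 library each and share no replicate numbers with the KO group. Depth limits Pax6, Sox1, Rax and Hesx1 in E7.5 WT, where they had 10, 13, 25 and 26 reads.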
